A study of Mus musculus with 12 samples.

Results

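Heat shock and chaperone genes encode the proteins that fold newly made polypeptides, keep unfolded ones from clumping and refold those damaged by heat or other stress. Here they were taken as every array probe whose annotated gene symbol begins with Hspa, Hspb, Hspd, Hspe, Hsph, Hsp90, Dnaja, Dnajb or Dnajc, together with the cytosolic chaperonin subunits Cct2 to Cct8 and Tcp1. The rule used names only and no measured value. It found 148 probes of 77 genes among the 34885 probes (19057 genes) that carry 1 gene name. A probe was tested if its detection p was under 0.01 on at least 3 of 12 arrays, which held for 31 of the 148 probes (20.9%), covering 27 genes, and for 5498 of all 45281 probes (12.1%).

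Whole blood RNA was compared between 3 Pik3cg-/- mice and 3 wild type (WT) mice on Illumina MouseWG-6 v2 arrays, with 2 technical arrays per mouse. The knockout mice carry the tm1Pngr allele of Pik3cg, which encodes the catalytic subunit of phosphoinositide 3-kinase gamma, a lipid kinase of blood cells. The line derives from 129 stock, was crossed back to C57BL/6J Jax and was then bred as a closed colony, whereas the WT mice were C57BL/6J and are not described as littermates. The allele is carried by the whole animal, all 6 mice were females of 13 to 16 weeks, and the labels give no treatment.

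The HSP70 proteins bind exposed stretches of unfolded proteins in a cycle driven by ATP. J-domain proteins (the Dnaj genes) hand them substrates and start ATP hydrolysis, and HSP110 proteins reset the cycle by exchanging the nucleotide. HSP90 proteins mature kinases and receptors, small heat shock proteins hold unfolded proteins without using ATP, and the chaperonins (HSP60 with HSP10 in mitochondria, TRiC in the cytosol) enclose a protein while it folds. Under stress the transcription factor HSF1 raises a subset of these genes by binding heat shock elements, which are inverted repeats of the unit GAA. In blood, maturing red cells and platelets lose or lack a nucleus and carry RNA made earlier, and chaperones are among the proteins they keep.

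The heat shock elements of these genes were looked up in the RefSeq promoter windows of build GRCm38.p6, each 300 bases from 250 before to 50 after a start site. Of the 77 genes, 64 had a window (82 windows in all). The 3-unit heat shock element, in which GAA and its reverse complement TTC alternate with any 2 bases between units (GAA, TTC, GAA or TTC, GAA, TTC, on either strand), was found in 6 of these 82 windows (7.32%) and in 198 of all 32851 windows (0.603%). By gene it was held by 4 of 64 (6.25%) against 179 of 27025 (0.662%), and the 4 genes are Dnajb6, Hspd1, Hspe1 and Hsph1, all of them tested. These counts are not of separate sites. The windows of Dnajb6 overlap and hold the same match, as do those of Hsph1, and Hspd1 and Hspe1 share theirs. The windows of all genes were counted in the same way. The shorter 2-unit element, GAANNTTC or TTCNNGAA, which every 3-unit match contains, was in 20 of the 82 windows (24.4%) against 15.1% of all windows. A pair of windows is shown, in lower case with the 3-unit matches in capitals: that of Hspe1, because it overlaps the window of its neighbour Hspd1, which is read from the opposite strand and so shares the same matches, and that of Dnajb6, the member gene with the lowest p in the comparison of genotypes. The Hspe1 window lies at chr1:55087898-55088197 on the + strand and holds 2 overlapping matches, centred 83 and 78 bases before the start. The Dnajb6 window shown lies at chr5:29735648-29735947 on the + strand and holds 1 match, centred 40 bases before the start. In the other Dnajb6 window, at chr5:29735729-29736028, the same match is centred 121 bases before that window's start site. A match of letters is a description and does not show that a factor binds there.
Hspe1: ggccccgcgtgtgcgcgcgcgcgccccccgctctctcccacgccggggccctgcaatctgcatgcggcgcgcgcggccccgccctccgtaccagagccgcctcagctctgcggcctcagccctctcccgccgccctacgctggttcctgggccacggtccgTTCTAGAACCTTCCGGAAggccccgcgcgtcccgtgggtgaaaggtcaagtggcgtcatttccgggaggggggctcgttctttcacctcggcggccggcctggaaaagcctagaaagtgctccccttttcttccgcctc
Dnajb6: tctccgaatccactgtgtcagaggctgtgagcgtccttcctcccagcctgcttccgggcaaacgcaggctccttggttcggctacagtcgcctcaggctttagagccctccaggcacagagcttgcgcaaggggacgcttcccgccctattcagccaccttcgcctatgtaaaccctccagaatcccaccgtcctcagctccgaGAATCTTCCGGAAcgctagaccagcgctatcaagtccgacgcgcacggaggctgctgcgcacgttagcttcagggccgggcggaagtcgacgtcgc

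In each group the 6 arrays gave similar numbers of chaperone probes above background, 27 to 34 of the 148 on WT arrays and 25 to 30 on knockout arrays. Over all probes, 4648 to 4995 were detected on the WT arrays and 3558 to 5511 on the knockout arrays, with the fewest on the arrays of knockout mouse C (3558 and 3696). The arrays do not check the genotype: 1 Pik3cg probe, ILMN_1227086, reached detection on only 2 arrays per genotype (mouse values of 6.74, 6.92 and 7.15 in WT and 7.18, 7.45 and 6.96 in knockout blood), and the other, ILMN_2564205, on none (6.42, 6.64 and 6.72 in WT and 6.23, 5.86 and 5.85 in knockout blood, all at background). All levels below are normalized log2 intensities per mouse, the mean of its 2 arrays. A fold-change is knockout minus WT on that scale, with its standard error (SE) and an adjusted p from limma over all 5498 probes. Levels of different probes are not comparable with each other.

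No heat shock or chaperone probe passed an adjusted p of 0.05 in limma, against 79 probes called higher (1.44%) and 71 called lower (1.29%) among all 5498. Scaling each array to its 75th percentile in place of quantile normalization moved the split over all probes to 67 higher and 240 lower, still with 0 chaperone probes. Of the 31 probes, 2 had an unadjusted p under 0.05 (6.45%), a smaller share than the 21.0% of all probes. The methods' analysis of variance, run on the authors' log2 values, called 3 of all 5498 probes (0.0546%) and 0 of 31, a share so low over all probes that the 0 says nothing about the list, with 3 of 31 at an unadjusted p under 0.05 against 16.6% of all probes. The fold-changes were small: they ran from −0.34 to 0.74 with a median of 0.19, against −0.02 for all probes. They leaned upward, with 22 of 31 above 0 (71.0%) against 46.6% of all probes, and 4 of 31 (12.9%) were at least 1.5-fold higher and 0 at least 1.5-fold lower, against 6.09% and 8.73% of all probes. The 4 are Dnajb1, Dnajb6 ILMN_1221204 and ILMN_3107377, and Hspa8 ILMN_2918479, so they are not all separate genes. On all but Dnajb1, knockout mouse A lay inside the WT range. Under the 75th percentile scaling the median of all probes was −0.19, the median of the 31 was 0.00 and 16 were above 0. Counted from the median of all probes, 23 of 31 lay above it with quantile normalization and 22 with the percentile scaling. The lean is a description of the list and has no test of its own.

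The mice of the 2 genotypes did not overlap for 5 of the 31 probes. All 3 knockout mice lay above all 3 WT mice for 4 (12.9%, against 13.4% of all probes) and below them for 1 (3.23%, against 14.4%). The precision was limited by 3 mice a group. The 95% interval of the fold-change lay within 2-fold in either direction for 25 of 31 probes and within 1.5-fold for 10, and for the others it reached past 1.5-fold in at least 1 direction. Technical duplicates of a chaperone probe had a standard deviation (SD) of 0.285, close to the 0.281 of all probes. The median SD between mice was 0.173 in WT and 0.290 in knockout mice, and for all probes it was 0.170 and 0.270.

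**Figure D1:**
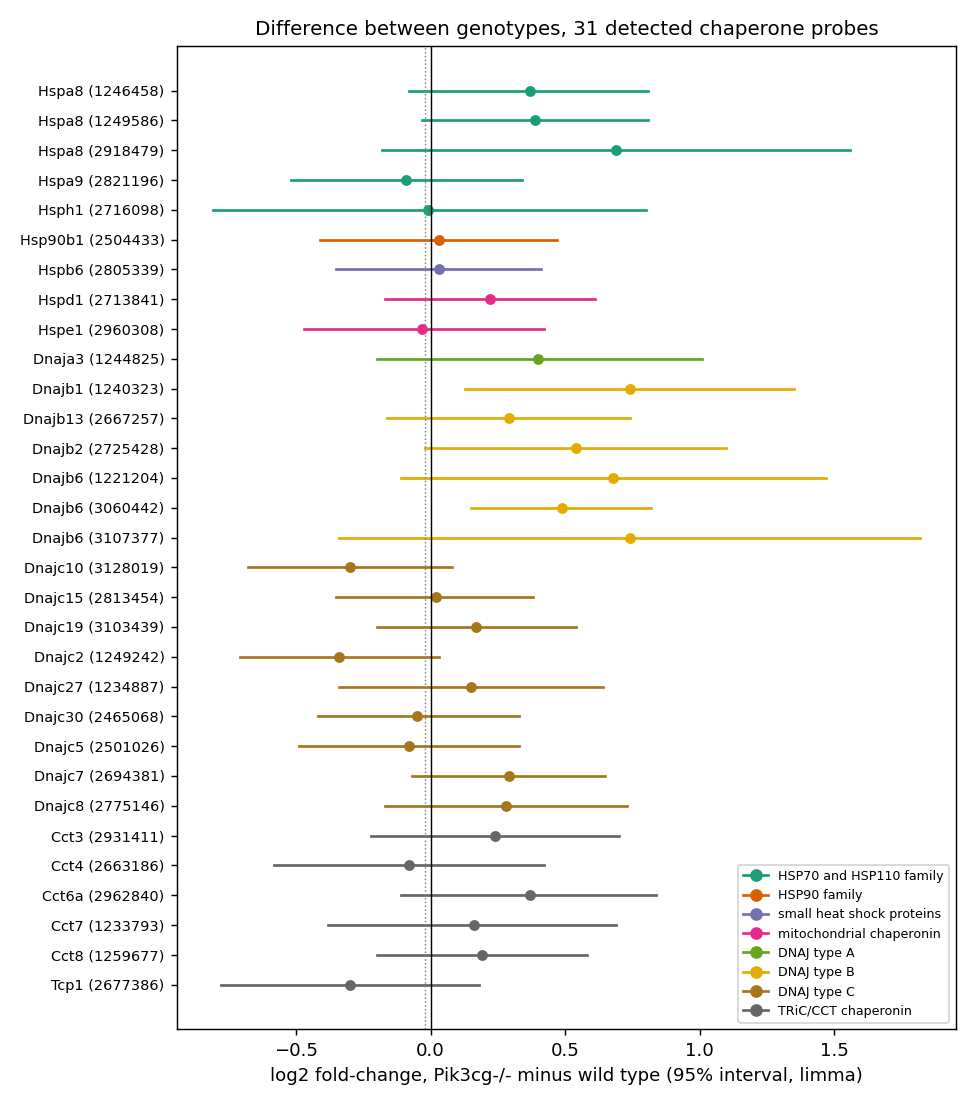
Log2 fold-change of each of the 31 tested chaperone probes (knockout minus WT, horizontal axis) with its 95% interval from limma, coloured by family and labelled by gene and probe number; the dotted line is the median of all tested probes, −0.02. All 6 DNAJ type B probes lie to the right of 0, from 0.29 to 0.74, while the 9 type C probes spread around it, from −0.34 to 0.29.

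The HSP70 proteins are the centre of the network, and 3 of the 14 genes of the HSP70 and HSP110 family were tested, on 5 probes. Their median fold-change was 0.37, with 3 probes above 0 and none called. Hspa8 encodes the constitutive cytosolic HSP70 (HSC70), which also strips clathrin from vesicles, and 3 of its probes were tested. On probe ILMN_1246458 the WT mice had 12.74, 12.56 and 13.00 and the knockout mice 13.19, 13.35 and 12.86. Knockout mice A and B were above every WT mouse and mouse C was not, so the groups overlapped, with a fold-change of 0.37 (SE 0.20, 95% interval −0.08 to 0.81, adjusted p = 0.320 from limma).

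The other two Hspa8 probes gave fold-changes of the same sign but a different order of mice. On ILMN_1249586 the WT mice had 11.94, 12.07 and 12.05 and the knockout mice 12.66, 12.47 and 12.10, which is 0.39 (SE 0.18, adjusted p = 0.269 from limma) without overlap. On the dim probe ILMN_2918479, detected on 5 of 6 arrays in each group, the WT mice had 7.25, 7.91 and 7.64 and the knockout mice 7.33, 8.70 and 8.83. Here it was knockout mice B and C that stood above the WT mice and mouse A that did not. The fold-change of 0.69 (SE 0.38, adjusted p = 0.337 from limma) became 1.16 (adjusted p = 0.0221) when knockout mouse A was left out, where 344 of all probes (6.26%) were called instead of 150, and 0.42 (adjusted p = 0.601) when mouse C was. Mouse A was thus above the WT mice on both bright probes and within them on the dim one, although the array's annotation assigns all 3 probes to the same transcript.

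Hspa9 encodes mortalin, the HSP70 that pulls proteins into mitochondria. Its WT mice had 9.13, 8.93 and 9.16 and its knockout mice 9.24, 9.04 and 8.68, so the groups overlapped around the same level (−0.09, SE 0.19, adjusted p = 0.827 from limma). Hsph1 encodes HSP110, which exchanges the nucleotide of HSP70, and it was near background, detected on 3 WT and 2 knockout arrays. Its mice spread widely, 6.72, 6.51 and 7.58 in WT and 7.17, 7.36 and 6.26 in knockout blood, and its fold-change was −0.01 (SE 0.35).

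The strongly heat-inducible members were mostly not measured. Of a list of 12 genes known to respond to heat, 11 had a named probe and 5 were tested, on 7 probes, with a median fold-change of 0.37, 5 above 0, 2 below, and none called. The 5 are Dnajb1 and Hsph1 of the cytosol, Hspd1 and Hspe1 of the mitochondrion, and Hspa8, which is made constitutively and accounts for 3 of the 7 probes. All 3 probes of Hspa1a and both probes of Hspa1b, the inducible HSP70 genes, which are near-identical in sequence, were undetected on all 12 arrays, with group means between 5.18 and 5.70. The 3 probes of Hsp90aa1, the inducible cytosolic HSP90, were also undetected on every array, as were both probes of Dnaja1 and all 3 of Dnajb4, J-domain partners of HSP70. Hspb1, the small heat shock protein HSP27 of human cells, had 1 probe detected on 1 array. An undetected probe limits what the array measured and does not show that the gene was silent.

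The HSP90 and endoplasmic reticulum members were nearly all undetected too. Hsp90b1 encodes GRP94, the endoplasmic reticulum HSP90 that folds integrins and Toll-like receptors, and it had 8.35, 8.53 and 8.53 in WT and 8.20, 8.83 and 8.47 in knockout mice. The groups overlapped and their means differed by 0.03 (SE 0.19, adjusted p = 0.955 from limma). Dnajc10, a reductase of the same compartment, had 7.69, 7.40 and 7.69 in WT and 7.45, 7.26 and 7.16 in knockout mice, a fold-change of −0.30 (SE 0.17, adjusted p = 0.337) with 1 WT mouse below the highest knockout mouse. The other 6 endoplasmic reticulum genes with a probe, among them Hspa5 (BiP, the HSP70 of that compartment) and Dnajb9, were not detected on any array. Of the 8 small heat shock genes only Hspb6 (HSP20) was tested, on 2 arrays of each group, with 7.19, 6.93 and 6.97 in WT and 7.14, 6.86 and 7.17 in knockout mice.

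Among the mitochondrial members, the 7 tested genes had a median fold-change of 0.02, between −0.09 and 0.40, with 5 intervals inside 1.5-fold. Hspd1 (HSP60) and Hspe1 (HSP10) encode the barrel and the lid of the mitochondrial chaperonin and have the overlapping promoter windows described above. Hspd1 had 9.12, 9.22 and 9.25 in WT and 9.58, 9.52 and 9.16 in knockout mice, with knockout mice A and B above the WT mice and C among them (0.22, SE 0.17, adjusted p = 0.498 from limma). Hspe1 had 8.86, 9.19 and 9.01 in WT and 9.32, 8.90 and 8.76 in knockout mice, with overlapping groups (−0.03, SE 0.19, adjusted p = 0.957). Dnaja3 (TID1), the J-domain partner of mortalin and the only type A member tested, had 7.58, 7.19 and 7.49 in WT and 7.23, 8.07 and 8.17 in knockout mice. Knockout mice B and C were high and A was low, with a fold-change of 0.40 (SE 0.26, adjusted p = 0.416).

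The type B J-domain genes, whose products guide substrates to HSP70 and disperse aggregates, had the highest median fold-change of the families. Of 12 genes 4 were tested, on 6 probes, each detected on all 12 arrays. All 6 fold-changes were above 0, from 0.29 to 0.74 with a median of 0.61, and 3 were at least 1.5-fold, though none was called. All 6 stayed above 0 under every alternative that was run, and the median was 0.42 under the 75th percentile scaling. The probes are not 6 independent measurements, since 3 belong to 1 gene.

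Dnajb1 encodes the HSP40 that works with HSP70 in the heat shock response. Its WT mice had 8.76, 9.03 and 9.36 and its knockout mice 9.80, 10.27 and 9.31. Knockout mice A and B were above all WT mice, while C lay just under the highest of them. The fold-change was 0.74, or 1.67-fold (SE 0.27, 95% interval 0.13 to 1.35), with an adjusted p of 0.164 from limma.

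Dnajb6 encodes a J-domain protein that keeps polyglutamine proteins from aggregating, and its 3 tested probes are annotated to different transcripts. Probe ILMN_3060442 had 9.75, 9.82 and 9.83 in WT and 10.26, 10.21 and 10.38 in knockout mice. The groups did not overlap. The SD between mice was 0.04 in WT and 0.08 in knockout mice (n = 3 each), below the 0.285 between duplicate arrays of the chaperone probes. The duplicates of knockout mouse B were 9.99 and 10.43 on this probe. Such low SDs from 3 mice do not measure how firm the separation is. Its fold-change of 0.49, or 1.40-fold (SE 0.15, 95% interval 0.15 to 0.82), had the lowest adjusted p of the members, 0.118 from limma. With the authors' log2 values in place of the renormalized signals it was 0.39 with an adjusted p of 0.0338, the only one of the 31 called with those values, which call 183 of all 5498 probes (3.33%).

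The other two Dnajb6 probes had higher fold-changes that were uneven between mice, and neither passed the test. ILMN_1221204 had 7.97, 8.70 and 8.25 in WT and 8.21, 9.14 and 9.60 in knockout mice (0.68, SE 0.35, adjusted p = 0.303 from limma). ILMN_3107377 had 7.44, 8.20 and 8.07 in WT and 7.56, 8.71 and 9.68 in knockout mice (0.74, SE 0.47, adjusted p = 0.404). On both, knockout mouse A fell inside the WT range and mice B and C above it, the order also seen for Dnaja3, Cct6a, Cct8 and the dim Hspa8 probe. Both values rested on single mice: ILMN_1221204 was 1.06 (adjusted p = 0.0447) without knockout mouse A, a fit that calls 344 of all probes, and 0.37 (adjusted p = 0.562) without mouse C, and ILMN_3107377 was 1.29 and 0.23.

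Dnajb2 (HSJ1), which carries ubiquitin-binding motifs and sends HSP70 clients to the proteasome, was bright, with 10.21, 10.88 and 10.89 in WT and 11.05, 10.98 and 11.56 in knockout mice. The groups did not overlap, but WT mouse A was well under the other WT mice, and the fold-change was 0.54 (SE 0.25, adjusted p = 0.256 from limma), or 0.31 without WT mouse A and 0.35 without knockout mouse C. Dnajb13, known from sperm flagella, was dim at 7.29, 7.53 and 7.53 in WT and 7.95, 7.37 and 7.88 in knockout mice (0.29, adjusted p = 0.445).

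**Figure D2:**
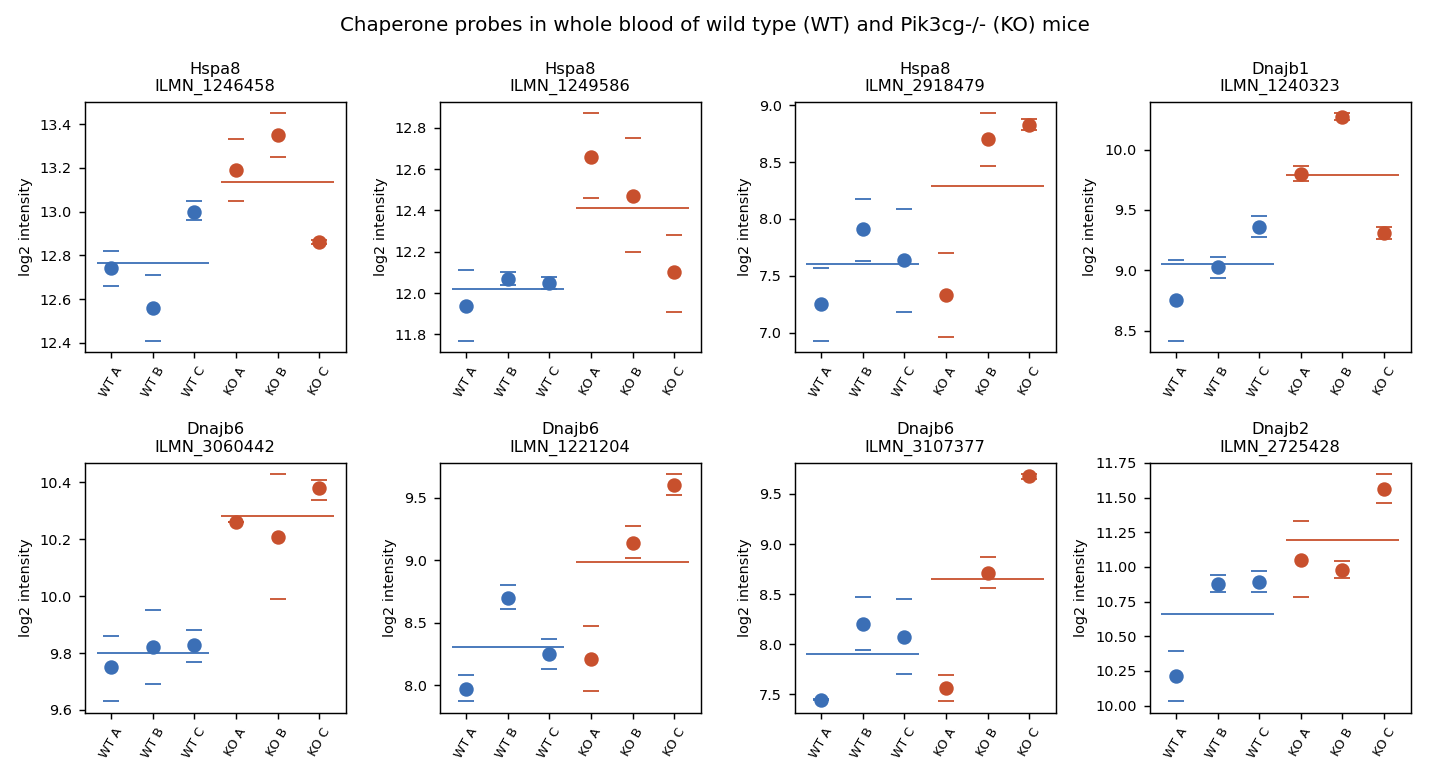
Normalized log2 intensity (vertical axis, a separate scale for each probe) of 8 probes of Hspa8, Dnajb1, Dnajb6 and Dnajb2 in the 3 WT (blue) and 3 knockout (KO, red) mice; circles are mouse means, short bars the 2 technical arrays, and long lines the group means. Dnajb6 ILMN_3060442 is at 9.75 to 9.83 in WT and 10.21 to 10.38 in knockout mice, whereas knockout mouse A is among the WT mice on ILMN_1221204, ILMN_3107377 and Hspa8 ILMN_2918479, and mouse C on Dnajb1 and Hspa8 ILMN_1246458.

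The type C genes are a mixed family that shares only the J domain, with 9 of 25 genes tested on 1 probe each. Their median fold-change was 0.02, with 5 above 0 and 4 below, and under the 75th percentile scaling it was −0.19, the median of all probes there. All 9 intervals lay within 2-fold. Dnajc7 (TPR2), which passes clients between HSP70 and HSP90, had 8.94, 8.74 and 8.93 in WT and 9.29, 9.07 and 9.13 in knockout mice. The groups did not overlap, and the fold-change was 0.29 (SE 0.16, adjusted p = 0.323 from limma).

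Dnajc2 (MPP11), which works at the ribosome on emerging polypeptides, was the only member with every knockout mouse below every WT mouse. It had 7.42, 7.41 and 7.34 in WT and 7.24, 6.85 and 7.05 in knockout mice, and it was detected on all 6 WT arrays but on 1 knockout array, so the knockout level is close to background and the probe passed the detection limit only through the WT arrays. The fold-change was −0.34 (SE 0.16, adjusted p = 0.268 from limma). Dnajc5 (cysteine string protein), of secretory vesicles including those of platelets, had 9.30, 9.38 and 9.32 in WT and 9.57, 9.13 and 9.05 in knockout mice. The knockout mice lay on both sides of the narrow WT range (−0.08, SE 0.18, adjusted p = 0.836). Dnajc19, of the mitochondrial import motor, had 9.23, 8.88 and 9.08 in WT and 9.33, 9.15 and 9.23 in knockout mice (0.17, adjusted p = 0.585). The other 4 tested type C genes were Dnajc8, with a fold-change of 0.28, Dnajc27 with 0.15, Dnajc15 with 0.02 and Dnajc30 with −0.05, all with overlapping groups.

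TRiC is the ring of 8 kinds of subunit that folds actin and tubulin, and since the subunits are built into 1 complex their levels are of interest together. Of its 9 genes (Cct6 has 2) 6 were tested, and none was called or separated the genotypes. The median fold-change was 0.17, with 4 subunits above 0 and 2 below, and it was 0.00 under the 75th percentile scaling. Cct8 had 9.62, 9.85 and 9.45 in WT and 9.67, 9.89 and 9.92 in knockout mice (0.19, adjusted p = 0.570 from limma). Cct4 had 9.76, 9.58 and 9.61 in WT and 9.84, 9.77 and 9.10 in knockout mice (−0.08, adjusted p = 0.867), with mouse C alone low. The ends of the range were Cct6a at 0.37 (SE 0.21) and Tcp1, subunit alpha, at −0.30 (SE 0.21). All 6 intervals lay within 2-fold.

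**Figure D3:**
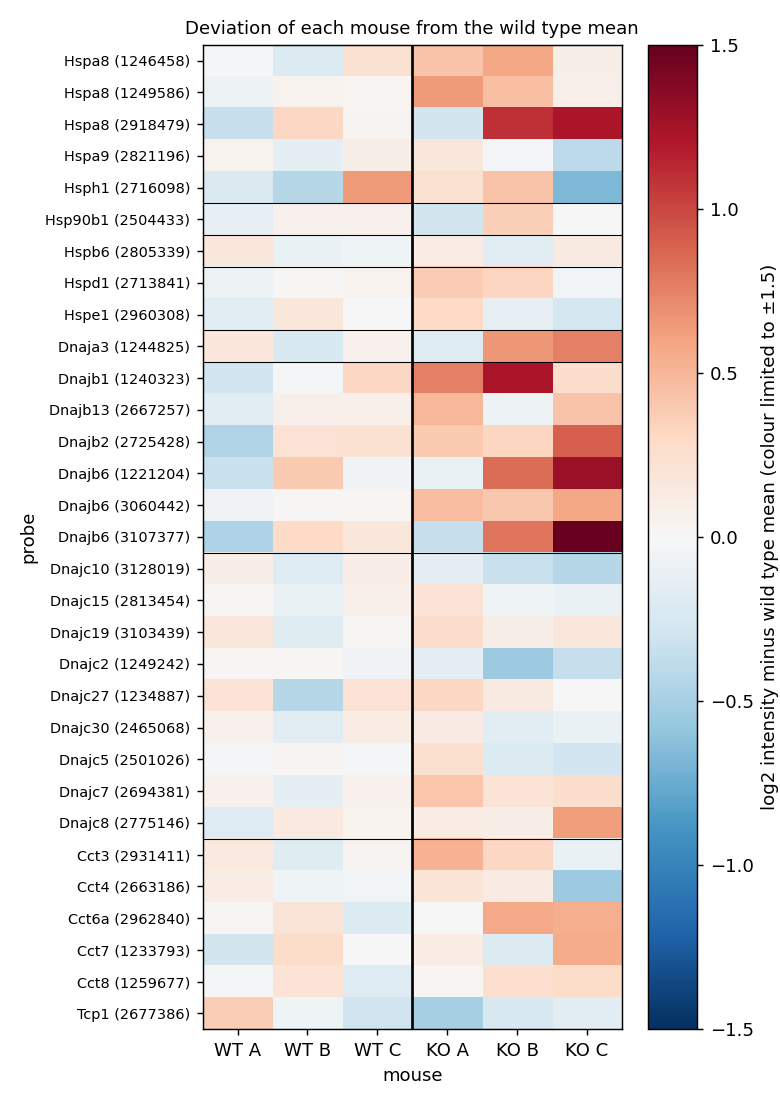
Deviation of each mouse (columns) from the WT mean for each of the 31 tested probes (rows, grouped by family), as a log2 difference in colour, red above and blue below, limited to ±1.5. The 3 knockout columns are above the WT mean throughout for Dnajb2 and Dnajb6 ILMN_3060442. They are so too for further probes, such as Dnajb1, Dnajc7 and both bright Hspa8 probes. For several other probes 1 knockout mouse goes against the other 2.

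Which knockout mouse stood out differed between probes. Mouse A was the highest of the knockout mice on 15 of the 31 probes, mouse B on 5 and mouse C on 11, and mouse C was the lowest on 13, B on 10 and A on 8. Mouse A was thus the highest on 48.4% of the chaperone probes and on 45.4% of all 5498 probes. Mouse C was the lowest on 41.9% of them and on 47.1% of all probes, but the order of the other two differed, with B the lowest on 32.3% and A on 25.8% of the chaperone probes against 23.0% and 29.8% of all probes.

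Partners of the chaperones were taken as a list of 63 genes of the network (HSF factors, nucleotide exchange factors, HSP90 co-chaperones, prefoldin and chaperone proteases). The naming rule leaves these out, except Hspbp1 and Hspbap1, which are also members and had no tested probe. Of the 63 genes, 57 had a named probe and 21 were tested, on 23 probes. None was called, 7 had an unadjusted p under 0.05 (30.4%, against 21.0% of all probes), and all 3 knockout mice lay above the WT mice for 7 (30.4%, against 13.4%) and below them for 1. The median fold-change was 0.33, with 17 above 0 and 6 below, and it was 0.15 under the 75th percentile scaling, where the knockout mice lay above for 2 and below for 3 (341 and 1053 of all 5498 probes there). A few of the 23 probes entered the test only through the group where they are high: Ahsa1 and Bag6 through the knockout arrays, and Pdia3 through the WT arrays. With detection required on at least 6 arrays, 20 partner probes were left. Of these 5 had an unadjusted p under 0.05 (21.6% of all probes did) and 6 had all knockout mice above the WT mice (30.0%, against 14.2%). This filter does not remove Ahsa1, detected on 2 WT and 5 knockout arrays, which is still among the 6. These counts are a description and have no test. The brightest was Bag1, which releases clients from HSP70, with 13.10, 13.07 and 13.33 in WT and 13.33, 13.32 and 13.47 in knockout mice (0.21, adjusted p = 0.483 from limma). Nudc, an HSP90 co-chaperone tied to the dynein motor, had 9.28, 9.31 and 9.42 in WT and 10.20, 10.14 and 9.49 in knockout mice. Its groups did not overlap, with a fold-change of 0.61 (adjusted p = 0.157). It was 0.83 (adjusted p = 0.0358) without knockout mouse C, a fit that calls 136 of all probes (2.47%). Pfdn5, a subunit of prefoldin, which delivers actin and tubulin to TRiC, gave −0.25 on its brighter probe, and Vcp, the ATPase that extracts ubiquitinated proteins, gave 0.06.

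Whole blood is a mixture, and in such bulk samples fewer cells of a type and less RNA per cell cannot be told apart. Markers of platelets, the cells the study was about, were low in the knockout mice: of 13 tested probes for all 11 genes, 11 were at least 1.5-fold lower, although 0 were called by limma (9 had an unadjusted p under 0.05). Their median deviation from the WT mean was −0.32 to 0.28 in WT mice and −2.70, −0.83 and −0.55 in knockout mice A, B and C. Mouse A, the one with the lowest platelet markers, fell inside the WT range on some probes where mice B and C lay above that range. These were Dnajb6 ILMN_1221204 and ILMN_3107377, the dim Hspa8 probe, Dnaja3, Cct6a and Cct8. On others, such as Dnajb1, Hspa8 ILMN_1246458, Hspd1 and Cct3, mice A and B lay above the WT range and mouse C did not. Both groups of probes were put together after the values were seen. How often all probes show either order was not counted. Mouse A was also the highest knockout mouse on 15 of the 31 chaperone probes. Monocyte markers (4 genes, 5 probes) were at −0.66 to −0.83 in knockout and −0.43 to 0.43 in WT mice, with 0 called. Their probes differed. Lyz2 was −1.12 and −0.89 and Cx3cr1, detected on no knockout array, was −0.99. Ly6c1 was −0.50 with overlapping groups and Csf1r was 0.00. Red cell markers (5 genes) were at 0.15 to 0.22 against −0.10 to 0.13, with 1 of the 5 probes called higher, Sptb (1.72, adjusted p = 0.00276 from limma). Ank1 was 0.88 (adjusted p = 0.0925) without overlap. The globin probe Hba-a1 (0.00) and Alas2 (−0.01) were near the top of the array's range in every mouse and can show little change. Slc4a1 (0.19) was nearly as bright, at 15.47 to 15.87. The red cell median thus says little about the size of a shift. Neutrophil markers (7 genes) were at 0.12 to 0.40 against −0.20 to 0.25, but their probes differed in sign. Of 8 probes, 5 had a fold-change above 0, among them Csf3r (1.06 and 0.55), and 3 below, among them S100a8 (−0.66). T cell markers (4 genes) were at 0.02 to 0.30 against −0.10 to 0.07. NK cell markers (3 genes) were at 0.03 to 0.33 against −0.14 to 0.23, and B cell markers (2 genes) at −0.34 to 0.25 against −0.40 to 0.33. The part of these cell types in the chaperone values was not tested.

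**Figure D4:**
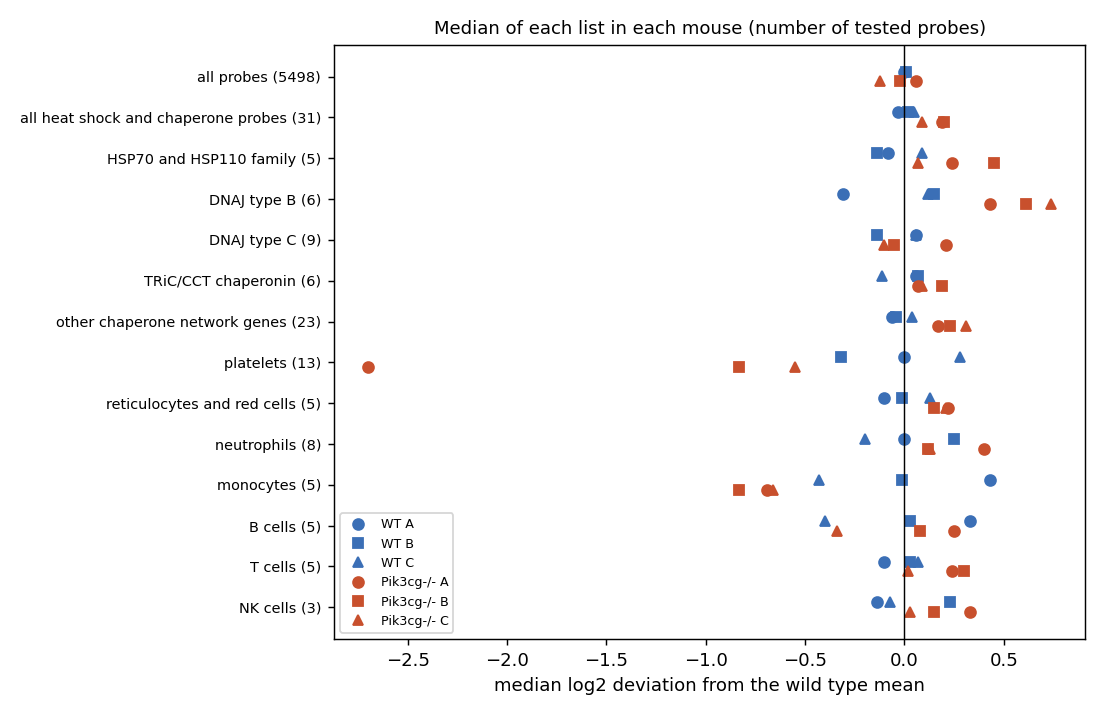
Median log2 deviation from the WT mean (horizontal axis) of each list of tested probes in each mouse, WT in blue and knockout in red, with circles for mouse A, squares for B and triangles for C, and the number of probes in brackets. The DNAJ type B median is 0.43 to 0.74 in knockout and −0.31 to 0.15 in WT mice, and the platelet markers reach −2.70 in knockout mouse A.

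Most of the family lay under the detection limit of these blood samples. Of the 148 probes, 111 were detected on no array, 6 on exactly 1 and none on 2, and 22 on all 12, and 45 of the 77 genes had no probe detected on any array. Just outside the limit, on 1 array, were probes of Cct2, Dnajb3, Dnajc16, Hspa9, Hspb1 and Hspb8, and just inside it were Dnajc27 on 3 arrays and Hspb6 on 4. Undetected on every array were 45 of 55 type C probes, 23 of 29 HSP70 and HSP110 probes, 15 of 22 type B probes, 8 of 11 small heat shock probes and 6 of 13 TRiC probes. Detection differed between probes of 1 gene: Hspd1 ILMN_2713841 was detected on all 12 arrays and Hspd1 ILMN_2639036 on none.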

How the data were processed

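Whole blood RNA of 3 Pik3cg-/- and 3 WT mice was labelled in duplicate and hybridized to 12 arrays, and the genotype in the labels set the groups. Per the file headers, the intensity of a probe is its average bead signal; the values scatter around 0, which shows a background subtraction, and differ in distribution between arrays. A detection p-value is deposited for each probe and array. The log2 values were made by the authors with background subtraction, a variance-stabilizing transformation and quantile normalization in lumi (version not given in the sources used here), and served as an alternative.

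The raw intensities went through limma 3.58.1 in R 4.3.3: neqc (offset 16, quantile), the 2 arrays of a mouse averaged, lmFit and eBayes over the 5498 probes with detection p under 0.01 on at least 3 arrays, and Benjamini-Hochberg adjustment over these. The limma step was tested on simulated data. Gene names came from the platform annotation (34885 with 1 name, 18 with several, 10378 with none), and genes with no named probe, such as Hsp90ab1, were not analysed here. Members and lists were chosen with earlier results of these data known. Named with values were called members, the 2 brightest genes of each family, up to 8 non-overlapping rises and falls, all measured heat-inducible genes, and the 4 brightest partners; further members were named after their values were seen. The 3 mice per group limit the precision. No batch is given in the sources used here. Alternatives were the authors' values, other background corrections, scalings and filters, single arrays, the arrays fitted singly (mouse as random block), a replicate block, a trended robust prior, the methods' analysis of variance, and each mouse left out. Plots were made in matplotlib 3.10.9 (Python 3.11.15).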

Additional observations from a re-analysis of the deposited data

How the results depend on the processing

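No chaperone probe was called lower under any alternative. The number called higher was 1 of 31 with the authors' log2 values (Dnajb6 ILMN_3060442, with 3.33% of all probes called; the cause was not tested) and 0 to 2 with each mouse left out in turn, the 2 being Dnajb6 ILMN_1221204 and Hspa8 ILMN_2918479 without knockout mouse A, where 6.26% of all probes were called. It was 0 under each other alternative. With no filter, 9 of the 148 chaperone probes had an unadjusted p under 0.05, against 8.08% of all probes. Under the rest, apart from the fits with a mouse left out, 0 to 6 chaperone probes did, against 16.6% to 23.9% of all probes. With each mouse left out 1 to 8 of 31 did, against 13.6% to 26.6% of all probes. The 8 were found without knockout mouse A, where the share of all probes was 26.6%. The median fold-change of the members was 0.12 with the authors' values and so in the methods' analysis of variance, 0.00 under the 75th percentile scaling, 0.01 with no filter (148 probes, most of them at background), and 0.18 to 0.26 with each mouse left out, highest without WT mouse C. No source used here says that the letters A to C pair the mice. The correlations of same-letter deviations (0.18, −0.18 and 0.18) cannot settle it with 3 mice a group. A replicate block by letter called 0 members and 111 of all probes, against 150. With it 6 members had an unadjusted p under 0.05, against 21.9% of all probes, and the members' median was 0.19. Fitting the 12 arrays singly, each mouse being a random block, called 471 of all probes and 0 members.

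Over the 31 probes and their alternatives, 577 values kept their direction and their side of the threshold, 3 newly passed it and 37 changed sign, all for probes with fold-changes between −0.09 and 0.19. With cyclic loess Hsph1 was 0.07. Under the 75th percentile scaling Cct7 was −0.01, Cct8 0.00, Dnajc15 −0.19, Dnajc19 −0.04, Hsp90b1 −0.18 and Hspb6 −0.09. With array 1 of each mouse Cct7 was −0.13, Dnajc27 −0.40, Dnajc30 0.45, Dnajc5 0.05, Hspa9 0.06 and Hspb6 −0.21, and with array 2 Dnajc15 was −0.01, Hsph1 0.07, Hsp90b1 −0.22 and Hspe1 0.13. With each mouse left out, the fold-changes that changed sign ran over these ranges: Cct4 −0.22 to 0.16, Cct7 −0.04 to 0.34, Dnajc5 −0.24 to 0.02, Dnajc15 −0.08 to 0.08, Dnajc27 −0.06 to 0.26, Dnajc30 −0.13 to 0.01, Hsp90b1 −0.14 to 0.18, Hspa9 −0.22 to 0.07, Hspb6 −0.03 to 0.13, Hspe1 −0.19 to 0.09 and Hsph1 −0.22 to 0.33. The cause was not tested.

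Among the partner genes, Nudc was called with the mouse as a random block (0.61, adjusted p = 0.0428 from limma) and without knockout mouse C. These fits called 8.57% and 2.47% of all probes. With array 2 alone 1 probe was called (Bag6, with 1.96% of all probes called). Without knockout mouse A it was also 1 (Ahsa1, with 6.26% of all probes called). Both were detected mainly on knockout arrays. Each such call is 1 of the 23 partner probes. Signal over background limits the members, since of 148 probes 111 were detected on no array and 6 on 1.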
